A study of Mus musculus with 703 samples.

Results

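The 10 protein-coding genes examined here are carried by the mouse mitochondrial genome. They were taken by symbol as mt-Nd1, mt-Nd2, mt-Nd4, mt-Nd5, mt-Nd6, mt-Cytb, mt-Co1, mt-Co2, mt-Co3 and mt-Atp6, and all 10 were found among the 19088 genes of the deposited table, which lists 15 genes of the mitochondrial genome in all. All 10 passed the filter on low counts in every fit. Gene expression was measured by sequencing polyadenylated RNA of gastrocnemius, a calf muscle, with 1 library per mouse. The mice came from 20 CC-RIX strains, which are first-generation crosses between different Collaborative Cross lines, and the labels call their genotype outbred. A Collaborative Cross line is an inbred mouse line that carries a mosaic of several founder genomes. Males and females ate a diet with 10% or 44% fat, both with fiber, from 6 weeks of age. Of the untreated animals 234 were on 10% fat and 235 on 44% fat, and 234 further animals drank metformin at 5 mg/mL from 7 months of age. Tissue was collected at 6 or 12 months of age, but the labels give no animal's age. Treated animals must belong to the older cohort, so metformin and age cannot be told apart.

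Each strain was represented by 22 to 38 libraries. The strain names join 13 first-named lines to 12 second-named lines, 6 first-named lines occur in more than 1 strain, and 6 lines stand first in some strains and second in others. In the usual naming of mouse crosses the first-named line is the mother, though the labels do not say so. The sequencing identifiers of 544 libraries lay in a lower range and those of 159 in an upper one. Of the 20 strains, 7 occur in 1 range only, (CC009/UncJ x CC013/GeniUncJ)F1 in the upper range and the other 6 in the lower. In these strains the range and the strain cannot be told apart.

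Mitochondria carry their own small circular genome, which is passed on by the mother in many copies per cell. It encodes a few subunits of the respiratory chain complexes I, III and IV and of the ATP synthase (complex V), together with the ribosomal and transfer RNAs needed to translate them. Both strands are transcribed as long RNAs that are cut apart at the transfer RNAs, so the genes share a promoter region. All other subunits are encoded in the nucleus. Fragments of mitochondrial DNA have also been inserted into nuclear chromosomes during evolution, and reads from the mitochondrial RNA can match such copies.

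Library totals ran from 27368536 to 96100529 counts, with a median of 47876086. Levels are given as CPM, the count of a gene scaled to the same total in every library. The labelled tissue carried its markers: all 12 fast fibre markers and all 8 slow fibre markers had a median of at least 1 CPM, and the fast fibre markers together took 97622 to 224637 CPM. In bulk tissue, fewer cells of a type and less RNA per cell cannot be told apart. Among 1404 pairs of libraries of the same strain and group, 0 were identical.

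In 15 libraries the level of Xist, which is expressed from the inactive X chromosome of females, went against the labelled sex. A further 4 libraries had a profile nearest to another strain. These 4 were all untreated males on 44% fat. Of these, 2 labelled (CC024/GeniUncJ x CC002/UncJ)F1 were nearest to (CC002/UncJ x CC075/UncJ)F1, and 2 labelled (CC002/UncJ x CC075/UncJ)F1 were nearest to (CC024/GeniUncJ x CC002/UncJ)F1. Levels by strain are given below without these 4 libraries, and tests with all libraries unless stated. Tests without all 19 are given where a call changed.

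The nuclear copies can bear on levels that follow, most plainly on those of mt-Co2, mt-Co3 and mt-Atp6. In the GRCm38 genome, a row of annotated copies of mitochondrial genes lies on the minus strand of chromosome 1, between bases 24611535 and 24616197. These are Gm28661 of mt-Co2, Gm10925 of mt-Atp6, Gm28437 of mt-Co3, Gm29216 of the end of mt-Co1, Gm28438 of mt-Nd3, Gm10222 of mt-Nd4l and Gm28439 of the start of mt-Nd4. The reads were 100 bases long, and Gm28661 was identical to mt-Co2 over 681 bases, Gm10925 to mt-Atp6 over 678 and Gm28437 to mt-Co3 over 783. Within these stretches no read of the reference sequence can tell the gene from the copy. Copies on chromosome 2 were less alike, with 95.9% identity over 684 bases for Gm13341 and mt-Co2 and 97.6% over 1545 bases for Gm13340 and mt-Co1. The following windows show bases at which mt-Co2 differs from Gm13341, and mt-Co1 from Gm29216 and Gm13340. They hold no difference between mt-Co2 and Gm28661. They are written 5′ to 3′ along the gene, with capitals at each base where the 3 aligned sequences are not all the same. The first 3 are bases 453 to 552 of mt-Co2 (mitochondrial genome, bases 7465 to 7564, plus strand), the matching window of Gm28661 (chromosome 1, 24615014 to 24615113, minus strand) and that of Gm13341 (chromosome 2, 22587423 to 22587522, minus strand).
mt-Co2: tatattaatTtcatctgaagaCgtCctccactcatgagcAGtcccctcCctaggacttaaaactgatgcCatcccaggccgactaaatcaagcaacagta
Gm28661: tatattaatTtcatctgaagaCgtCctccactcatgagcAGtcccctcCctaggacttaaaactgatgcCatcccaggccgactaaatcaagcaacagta
Gm13341: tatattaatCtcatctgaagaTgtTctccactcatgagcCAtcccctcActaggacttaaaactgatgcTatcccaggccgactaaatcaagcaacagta

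Gm28661 showed 0 differences from mt-Co2 here, and Gm13341 showed 7, which are T462C, C474T, C477T, A492C, G493A, C501A and C522T, counted from the first base of mt-Co2. The next 3 are bases 1063 to 1162 of mt-Co1 (mitochondrial genome, 6390 to 6489, plus strand), Gm29216 (chromosome 1, 24616089 to 24616188, minus strand) and Gm13340 (chromosome 2, 22588486 to 22588585, minus strand).
mt-Co1: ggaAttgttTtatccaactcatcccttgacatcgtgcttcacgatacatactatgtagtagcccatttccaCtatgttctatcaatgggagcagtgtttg
Gm29216: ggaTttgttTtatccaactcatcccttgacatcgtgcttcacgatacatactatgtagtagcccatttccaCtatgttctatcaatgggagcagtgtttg
Gm13340: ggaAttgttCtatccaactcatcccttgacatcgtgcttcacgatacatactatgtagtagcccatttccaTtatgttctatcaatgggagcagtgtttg

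Gm29216 differed from mt-Co1 by A1066T alone, counted from the first base of mt-Co1, and then ran identical for 479 bases. Gm13340 differed by T1072C and C1134T in this window, and its longest identical stretch was 148 bases. Among annotated transcripts, no copy of at least 100 bases and 90% identity was found for mt-Nd1. Copies of mt-Nd2 (Gm13339), mt-Nd4 (Gm28439), mt-Nd5 (Gm11407 and Gm4076), mt-Nd6 (Gm11408) and mt-Cytb (Gm11410) exist in the annotation but are not among the genes of the table analysed here. On the mitochondrial genome of GRCm38 the genes of complex I lie at bases 2751 to 3707 (mt-Nd1), 3914 to 4951 (mt-Nd2), 10167 to 11544 (mt-Nd4), 11742 to 13565 (mt-Nd5) and, on the minus strand, 13552 to 14070 (mt-Nd6). mt-Cytb lies at 14145 to 15288, mt-Co1 at 5328 to 6872, mt-Co2 at 7013 to 7696, mt-Co3 at 8607 to 9390 and mt-Atp6 at 7927 to 8607, all on the plus strand, and each gene is a single exon. The 10 genes also overlap their neighbours: mt-Atp6 shares 43 bases with mt-Atp8 and 1 with mt-Co3, mt-Nd4 shares 7 with mt-Nd4l, and mt-Nd5 shares 14 with mt-Nd6 on the other strand.

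The 10 genes together held a median of 7.69% of all counts, with a range of 4.72% to 15.1% over all libraries. With the counts of their copies added, the median was 9.52%. Per kilobase of gene length, mt-Co1, the catalytic subunit of cytochrome c oxidase (complex IV), had the highest median at 18692 CPM. mt-Cytb, the cytochrome b of complex III, followed at 9518 CPM per kilobase. This order holds for the genes counted apart. Summed with their copies, mt-Co3, mt-Atp6 and mt-Co2 stood above mt-Cytb, with medians of 13086, 12387 and 10792 CPM per kilobase, while mt-Co1 stayed highest at 18798. The ranges of the genes counted apart overlapped between mt-Co1 and mt-Cytb, since mt-Co1 spanned 11490 to 31777 and mt-Cytb 6004 to 19586 CPM per kilobase.

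The medians per kilobase of the complex I subunits were 7528 CPM for mt-Nd1, 6261 for mt-Nd4, 4983 for mt-Nd2, 3874 for mt-Nd5 and 2885 for mt-Nd6, the member encoded on the opposite strand. All 5 are membrane subunits of complex I, which takes electrons from NADH and pumps protons. mt-Co3 and mt-Co2, subunits of complex IV, stood at medians of 5121 and 2403 CPM per kilobase, and mt-Atp6, which forms part of the proton channel of the ATP synthase, at 2807. In mt-Co2 the median hides a split, since its levels ran from 5.75 to 8288 CPM per kilobase, while the other 9 genes varied by less than 10-fold between their lowest and highest library.

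mt-Co2, which receives the electrons from cytochrome c, was close to absent in the counts of 5 strains and high in the other 15. In (CC030/GeniUncJ x CC002/UncJ)F1 its lowest, median and highest levels were 3.93, 8.83 and 24.6 CPM over 37 libraries. In (CC002/UncJ x CC075/UncJ)F1 they were 5.15, 13.3 and 28.02 CPM over 34 libraries, and in (CC042/GeniUncJ x CC060/UncJ)F1 5.07, 13.8 and 31.5 CPM over 33. The remaining low strains, (CC002/UncJ x CC043/GeniUncJ)F1 and (CC042/GeniUncJ x CC040/TauUncJ)F1, had medians of 16.1 and 17.01 CPM over 36 libraries each. These 5 strains are those whose first-named line is CC002/UncJ, CC030/GeniUncJ or CC042/GeniUncJ.

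The other 15 strains ranged in median from 1410 CPM in (CC051/TauUncJ x CC060/UncJ)F1 to 2426 CPM, found for (CC043/GeniUncJ x CC042/GeniUncJ)F1. The 176 libraries of the 5 low strains lay between 3.93 and 33.1 CPM, and the 523 libraries of the other 15 between 872 and 3719.8 CPM, so the groups did not overlap. Within either set, libraries of strains next to each other in order of median overlapped. Of the 4 libraries nearest to another strain, the 2 labelled (CC024/GeniUncJ x CC002/UncJ)F1 had 10.8 and 18.9 CPM, and the 2 labelled (CC002/UncJ x CC075/UncJ)F1 had 5669 and 2747 CPM, each on the side of the strain its profile was nearest to.

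Lines that stood first in some strains and second in others were compared in both places. CC042/GeniUncJ stood second in 4 strains, and 0 of their 145 libraries had under 100 CPM of mt-Co2. CC002/UncJ stood second in 3 strains, and the 37 of their libraries that had under 100 CPM were those of (CC030/GeniUncJ x CC002/UncJ)F1. CC043/GeniUncJ, whose strains were high when it stood first, was second in (CC002/UncJ x CC043/GeniUncJ)F1, and all 36 libraries of that strain were under 100 CPM.

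**Figure D1:**
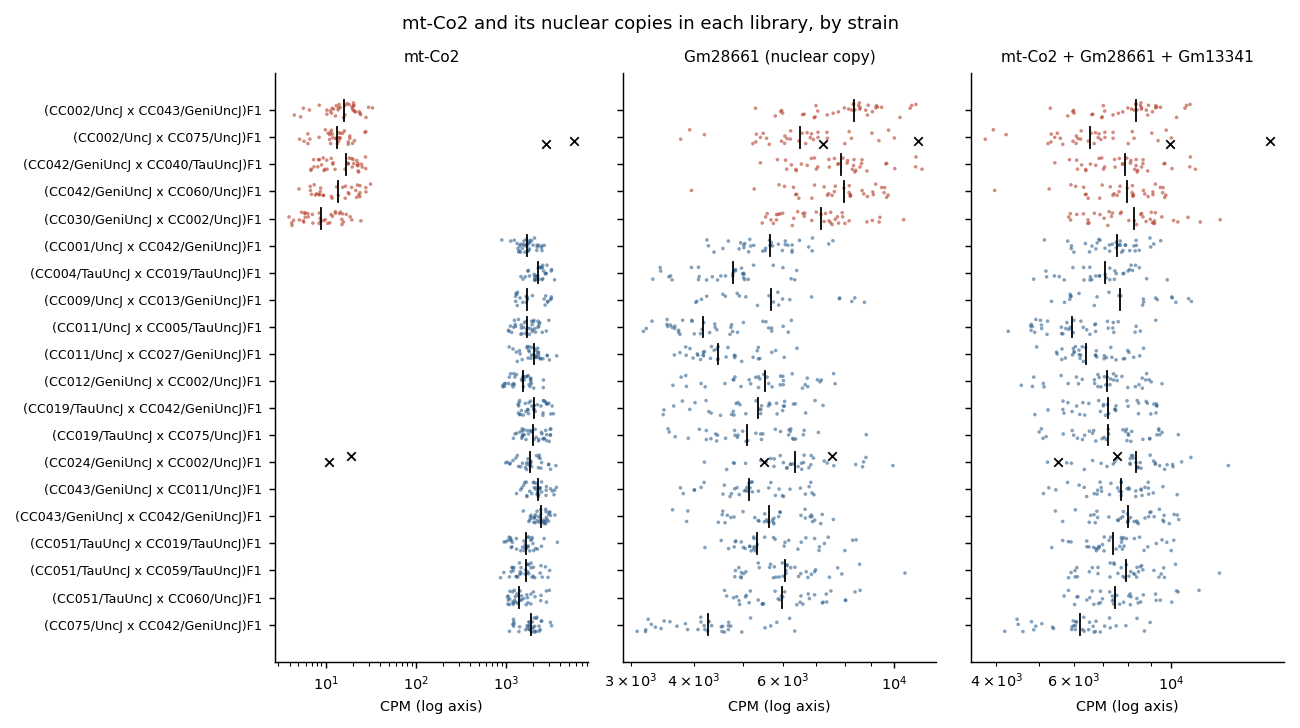
Level of mt-Co2 (left), its copy Gm28661 (middle) and mt-Co2 summed with Gm28661 and Gm13341 (right) in CPM on log axes, 1 point per library, by strain. Strains with CC002/UncJ, CC030/GeniUncJ or CC042/GeniUncJ named first are in red and the others in blue, bars are strain medians, and crosses are the 4 libraries nearest to another strain. The red strains sit at 3.93 to 33.1 CPM in the left panel and among the other strains in the right panel.

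In the 5 low strains, most of the counts of mt-Co2 and its copies stood under Gm28661. Gm28661 had a median of 7426 CPM there and of 5299 CPM in the other 15 strains. The part of the summed counts of mt-Co2, Gm28661 and Gm13341 that was listed under mt-Co2 had strain medians of 0.117% to 0.220% in the 5 strains and of 19.2% to 33.1% in the 15. Summed with its copies, mt-Co2 had a median of 7689 CPM in the 5 strains (range 3773 to 12955) and of 7269.9 CPM in the other 15 (range 4179 to 13522), and the groups overlapped over most of their range. The highest strain median was 275 times the lowest for mt-Co2 counted apart and 1.41 times the lowest for the sum.

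Gm13341, the more distant copy, was counted in a single strain. Its 37 libraries of (CC030/GeniUncJ x CC002/UncJ)F1 ran from 210.2 to 2502 CPM with a median of 1032 CPM, and the libraries of the other 19 strains did not exceed 2.89 CPM. In that strain Gm13341 took a median of 12.6% of the summed counts.

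mt-Nd4l, a complex I subunit next to mt-Nd4 that is not one of the 10 genes, showed a like split with 1 line fewer. In the 4 strains with CC002/UncJ or CC042/GeniUncJ first it ran from 11.9 to 40.3 CPM over 139 libraries. In the other 16 strains, the CC030/GeniUncJ cross among them, it ran from 632 to 2011 CPM over 560 libraries. Its copy Gm10222 had a median of 1907 CPM in the 4 strains and 502 CPM in the 16, and the sums had medians of 1929 and 1769.7 CPM.

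The split between gene and copy also differed between strains for mt-Atp6 and mt-Co3. For mt-Atp6, the part listed under the gene rather than under Gm10925 had strain medians of 35.8% to 43.9% in strains with CC002/UncJ, CC030/GeniUncJ or CC042/GeniUncJ first. It was 25% to 28.4% with CC009/UncJ, CC011/UncJ, CC019/TauUncJ or CC075/UncJ first, and 18.1% to 21.1% with CC001/UncJ, CC004/TauUncJ, CC012/GeniUncJ, CC024/GeniUncJ, CC043/GeniUncJ or CC051/TauUncJ first. These 3 sets of first-named lines were formed after the values were seen, so the gaps between their strain medians are no test. Libraries of the sets overlapped.

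mt-Co3 followed another grouping. The part listed under mt-Co3 rather than under Gm28437 was 25.4% to 29.1% in 178 libraries of 5 strains and 36.5% to 45.04% in 521 libraries of the other 15. The 5 strains were (CC001/UncJ x CC042/GeniUncJ)F1, (CC004/TauUncJ x CC019/TauUncJ)F1, (CC012/GeniUncJ x CC002/UncJ)F1, (CC043/GeniUncJ x CC042/GeniUncJ)F1 and (CC051/TauUncJ x CC060/UncJ)F1. This grouping cut across first-named lines. (CC043/GeniUncJ x CC011/UncJ)F1 had a median of 41.8% while 26.8% was the median of (CC043/GeniUncJ x CC042/GeniUncJ)F1, and among strains with CC051/TauUncJ first the medians were 41.7%, 41.5% and 26.99%.

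**Figure D2:**
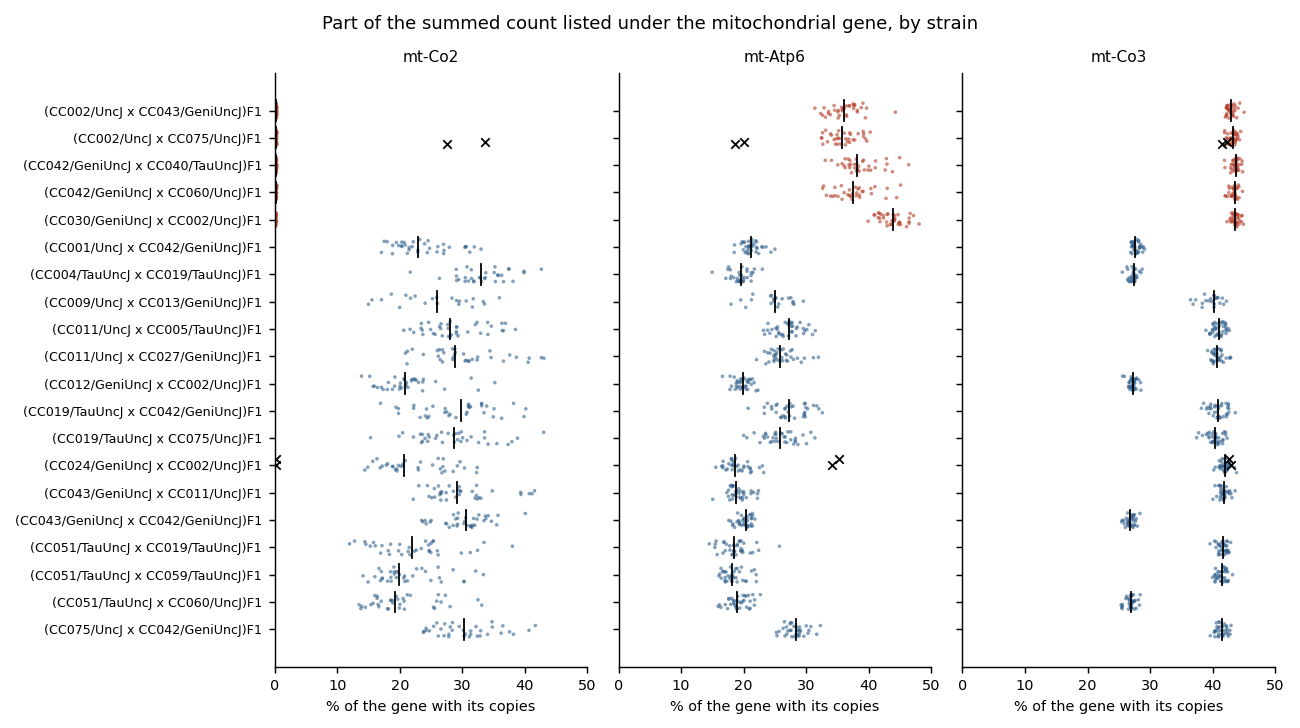
Percent of the summed counts of gene and copies that was listed under the mitochondrial gene, for mt-Co2, mt-Atp6 and mt-Co3, 1 point per library, by strain. Colours, bars and crosses are as in the plot of mt-Co2 levels. The 5 red strains lie near 0 for mt-Co2 and highest for mt-Atp6, while for mt-Co3 a different set of 5 strains lies at 25.4% to 29.1%.

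Gm28438, a copy of mt-Nd3, which is not one of the 10 genes, took more counts than mt-Nd3 itself: the median over strain medians was 283.4 CPM for mt-Nd3 counted apart and 905.9 CPM with its copy added, leaving out the 4 libraries nearest to another strain. Gm29216, the copy of the end of mt-Co1, had strain medians of 169 to 646 CPM in strains whose first-named line was CC001/UncJ, CC004/TauUncJ, CC012/GeniUncJ, CC024/GeniUncJ, CC043/GeniUncJ or CC051/TauUncJ and of 1.67 to 4.33 CPM in the others. These sets of strains too were formed after the values were seen. Their libraries overlapped, at 15.8 to 4444 CPM in the first set and 0.266 to 631 CPM in the other. In the first set 55 of 320 libraries had under 100 CPM. Its highest part of the summed mt-Co1 counts was 14.5% in a library and 2.21% as a strain median, both in the first set. Gm13340 had strain medians of 0.2955 to 11.9 CPM.

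Away from mt-Co2, with genes counted apart, the highest strain median was between 1.25 times (mt-Co1) and 2.72 times (mt-Atp6) the lowest. (CC030/GeniUncJ x CC002/UncJ)F1 had the highest median for 5 of the 10 genes, mt-Nd1, mt-Nd2, mt-Nd4, mt-Cytb and mt-Atp6. (CC075/UncJ x CC042/GeniUncJ)F1 and (CC004/TauUncJ x CC019/TauUncJ)F1 had the lowest median for 4 genes each. These ranks changed for mt-Atp6 and mt-Co3 when copies were added. Both were then highest in (CC002/UncJ x CC043/GeniUncJ)F1 and lowest in (CC075/UncJ x CC042/GeniUncJ)F1. The highest strain median of mt-Atp6 was then 1.44 times the lowest.

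mt-Nd2, a complex I subunit, had the clearest single high strain. Its level in (CC030/GeniUncJ x CC002/UncJ)F1 had a lowest, median and highest value of 4698, 8569 and 13342 CPM over 37 libraries. The strain next below, (CC051/TauUncJ x CC059/TauUncJ)F1, had 5051, 6552 and 9730.4 CPM over 36, and the lowest, (CC075/UncJ x CC042/GeniUncJ)F1, had 2610.0, 3716 and 5316 CPM over 36. The ranges of the first pair overlapped, as did those of the highest and lowest strains at their edges. The 3 strains with CC051/TauUncJ first stood side by side in the order of mt-Nd2, with medians of 6292, 6329 and 6552 CPM.

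mt-Nd1, whose product holds part of the quinone site of complex I, was lowest in (CC075/UncJ x CC042/GeniUncJ)F1, with 3780.2, 5101 and 7867 CPM. The next lowest medians belonged to the strains with CC011/UncJ or CC019/TauUncJ first, from 5536 to 6051 CPM, and libraries of these neighbours overlapped. In the highest strain, (CC030/GeniUncJ x CC002/UncJ)F1, mt-Nd1 ran from 6254 to 14787 CPM with a median of 8853 CPM.

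mt-Atp6 was highest in the same 5 strains in which mt-Co2 was lowest. Their libraries ran from 1997 to 7035 CPM with a median of 3466 CPM, against 1043 to 3019 CPM with a median of 1778 CPM in the other 15 strains, and the groups overlapped. Summed with Gm10925, the medians were 9084 and 8219.9 CPM. mt-Co3 was lowest in the 5 strains with the low split, at strain medians of 2478 to 2861 CPM, against 3472 to 5562 CPM in the others, and summed with Gm28437 its highest strain median fell from 2.25 to 1.51 times the lowest.

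mt-Co1, mt-Cytb, mt-Nd4, mt-Nd5 and mt-Nd6 varied least between strains, with highest over lowest strain medians of 1.25 for mt-Co1, 1.45 for mt-Nd4 and mt-Nd6, 1.49 for mt-Nd5 and 1.502 for mt-Cytb. mt-Nd5 and mt-Nd6, neighbours on opposite strands, were both highest in (CC042/GeniUncJ x CC040/TauUncJ)F1, with medians of 9031 and 1884 CPM. In all 5 genes the libraries of the lowest and highest strain overlapped.

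**Figure D3:**
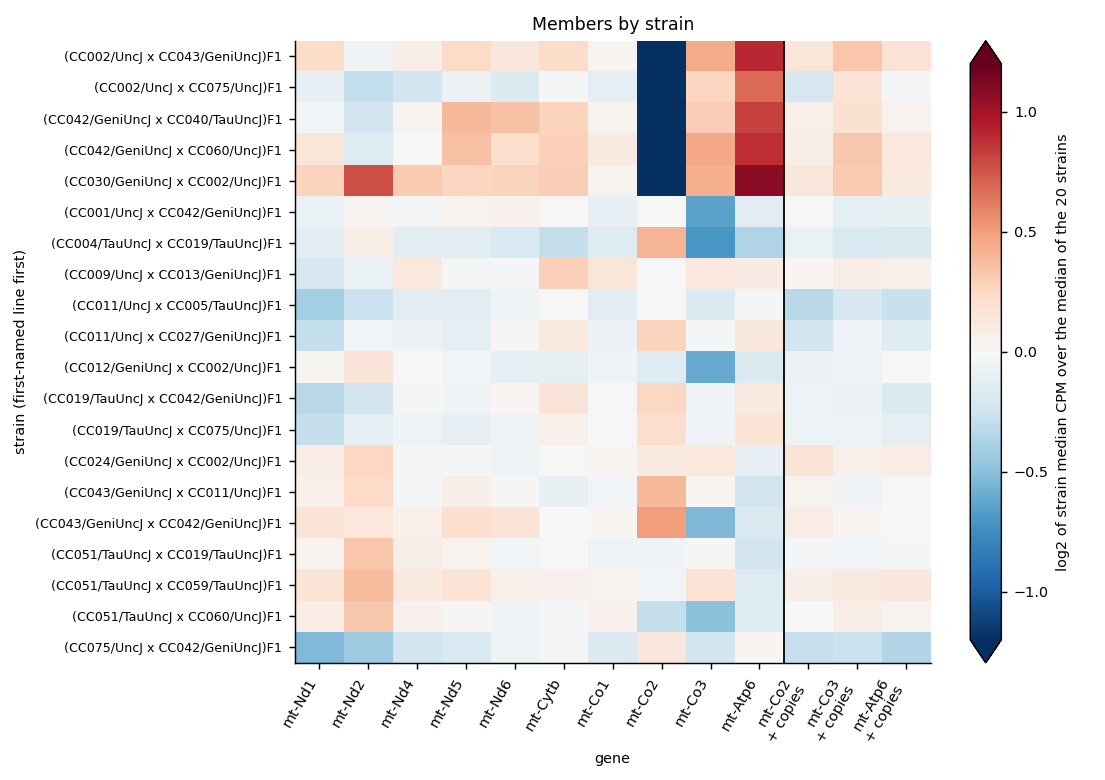
Strain medians of the 10 genes, and of 3 genes summed with their nuclear copies (right of the line), as log2 of the strain median CPM over the median of the 20 strains. Blue is lower and red higher, and values beyond the ends of the scale take the end colour. The column of mt-Co2 is far below the scale in the 5 strains with CC002/UncJ, CC030/GeniUncJ or CC042/GeniUncJ first, and the columns of the sums are pale.

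Strain differences were tested in the untreated libraries with edgeR's quasi-likelihood F test, with sex, diet and identifier range as other terms. All 10 genes were called at an adjusted p under 0.05, beside 93.2% of all genes. Strains with the same first-named line differed from each other in 8 of the 10 genes, beside 73.8% of all genes, the exceptions being mt-Atp6 (adjusted p = 0.0757, edgeR) and mt-Nd4 (adjusted p = 0.256, edgeR). The shares of all genes called are near those of the 10 genes. Without the 19 libraries, the call of mt-Co2 among strains with the same first-named line was lost (adjusted p = 0.149, edgeR), while mt-Atp6 (adjusted p = 0.0455) and mt-Nd4 (adjusted p = 0.00466) were called in the same edgeR fit, beside 74% of all genes. mt-Co3 had the lowest adjusted p of the 10 among strains with the same first-named line, 9.85e-62 with edgeR, and 0.000869 when summed with its copy.

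The first-named and second-named line were then compared as factors over the 20 strain means, in which a strain is 1 observation. The first-named line was called in 3 of the 10 genes by limma's moderated F test, beside 2.22% of all genes. These were mt-Co2 (adjusted p = 1.14e-08, limma), for which 99.9% of the variance among strain means lay between first-named lines, mt-Atp6 (adjusted p = 0.000181, limma, 99.2%) and mt-Nd2 (adjusted p = 0.0351, limma, 95.2%). With 13 lines for 20 strains a large part of the variance lies between lines for any gene, and the median over all genes tested was 76.1%. In simulated data this test called more unchanged genes than its threshold allows, most so when strains did not differ, which bears most on calls near the threshold, such as mt-Nd2. The median over the 10 genes was 91.6%, and mt-Nd1 was next below the threshold (adjusted p = 0.0550, limma, 95.3%).

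The second-named line was called in 0 of the 10 genes, beside 0.818% of all genes, and 0 had an unadjusted p under 0.05 with limma on log2 CPM, nor was any called on the authors' variance-stabilised values. The median part of the variance between second-named lines was 64.1% over the 10 genes and 70% over all genes. The metformin-treated libraries did not enter that fit but came from the same strains, so they are no separate test of the lines. In them the first-named line was called for mt-Co2 (adjusted p = 1.59e-10, limma) and mt-Atp6 (adjusted p = 0.00263, limma), beside 1.44% of all genes. It was not called for mt-Nd2 (adjusted p = 0.125, limma).

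Genes were then summed with those nuclear copies that had counts of their own, a step added after the data had been seen. Of the 10 genes, only mt-Co1, mt-Co2, mt-Co3 and mt-Atp6 had such copies, and the others kept their own counts. The first-named line was then called in 1 of the 10 genes, mt-Nd2 (adjusted p = 0.0365, limma), which had no copy to add, beside 2.12% of all genes. mt-Co2 then had an adjusted p of 0.292 (limma) with 84.3% of the variance between first-named lines, and mt-Atp6 one of 0.167 (limma) with 90.7%. The median over the 10 genes was 90.2%.

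**Figure D4:**
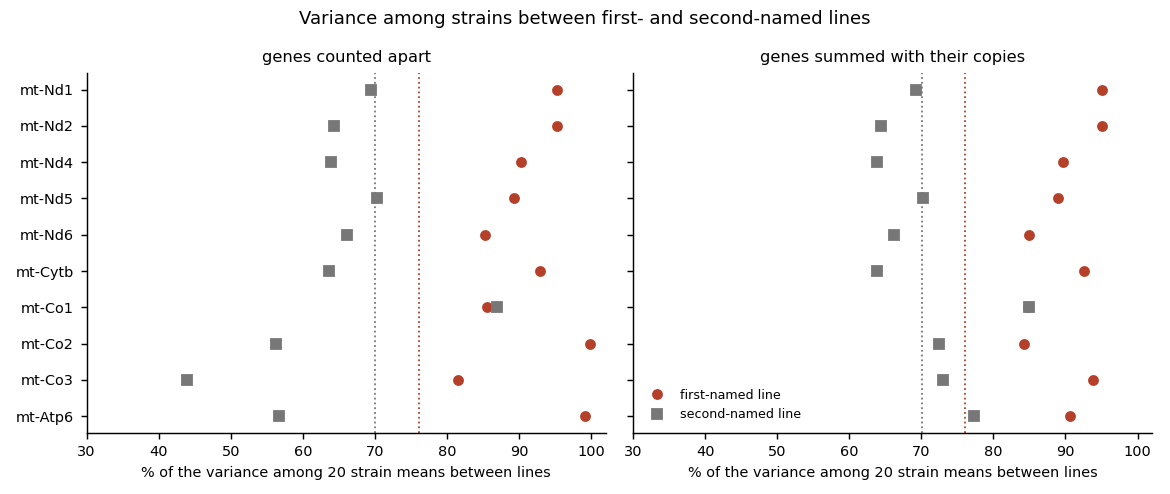
Percent of the variance among 20 strain means that lay between first-named lines (circles) and between second-named lines (squares), for genes counted apart (left) and summed with copies (right). Only mt-Co1, mt-Co2, mt-Co3 and mt-Atp6 had copies to add. Dotted lines mark the medians over all genes tested, which for genes counted apart were 76.1% for first-named and 70% for second-named lines. mt-Co2 and mt-Atp6 lie at 99.9% and 99.2% on the left and at 84.3% and 90.7% on the right.

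On the 44% fat diet the mitochondrially encoded genes were slightly higher in untreated animals. mt-Co1 had a median of 30220.1 CPM on 44% fat (range 22737 to 49095, 235 libraries) and of 28112 CPM on 10% fat (range 19512 to 43664, 234 libraries). mt-Cytb had medians of 11333 CPM on 44% fat (8332 to 22406) and 10756 CPM (6868 to 15558). The libraries of both diets overlapped over most of their range in each gene.

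The difference was tested within strain, sex and identifier range. With edgeR, 9 of the 10 genes rose, beside 9.55% of all genes called higher and 18.4% called in either direction. Log2 fold changes were 0.10 ± 0.014 (SE) for mt-Co1 (adjusted p = 2.63e-11, edgeR) and 0.11 ± 0.014 for mt-Cytb (adjusted p = 1.11e-10, edgeR). The complex I subunits mt-Nd2, mt-Nd4, mt-Nd5 and mt-Nd6 rose by 0.10 to 0.12, mt-Nd1 rose by 0.07, mt-Atp6 by 0.11 and mt-Co3 by 0.05 (adjusted p = 0.0180, edgeR).

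mt-Co2 did not pass the test, at 0.19 ± 0.092 (SE, adjusted p = 0.135, edgeR). Summed with its copies it rose by 0.08 ± 0.023 (adjusted p = 0.00829, edgeR), and all 10 genes were then called higher, beside 9.21% of all genes. Only mt-Co1, mt-Co2, mt-Co3 and mt-Atp6 had copies to add. The median log2 fold change of the 10 genes was 0.107, and that of all genes tested −0.002. The median of mt-Cytb and of mt-Nd5 was higher on 44% fat in 17 of 20 strains each, that of mt-Co1 in 15 and that of mt-Co3 in 9. Within the lower identifier range 9 genes were called, beside 15.7% of all genes called in either direction. Within the upper range, with 33 libraries on 10% and 36 on 44% fat, 0 were called, beside 1.8% of all genes. There 0 of the 10 had an unadjusted p under 0.05 with edgeR. Without the 19 libraries against their label mt-Co3 was lost (adjusted p = 0.0806, edgeR).

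In the edgeR fit all 10 genes were higher in males than in females, beside 29.5% of all genes called higher in males and 65.2% called in either direction (edgeR). mt-Co1 had a median of 29964 CPM in 233 males (22559 to 49095) and of 28041 CPM in 236 females (19512 to 40877), a log2 fold change of 0.16 ± 0.014 (SE, adjusted p = 1.55e-27, edgeR). mt-Nd1 had medians of 7508 CPM (4211 to 16403) and 7080.5 CPM (3780.2 to 10746), and also rose by 0.16 on the log2 scale (SE 0.017, adjusted p = 4.38e-18, edgeR). The sexes overlapped in every gene, and the smallest change was 0.08 ± 0.014 for mt-Cytb. The medians did not all follow the fit. For mt-Co2 the median was 1601 CPM in males and 1673 CPM in females, and for mt-Nd4 it was 8642 and 8650.3 CPM. The male median was higher in 16 of 20 strains for mt-Co1 and mt-Nd1, in 14 for mt-Nd2, mt-Nd6 and mt-Co3, in 12 for mt-Nd5 and mt-Atp6, in 11 for mt-Nd4 and mt-Co2, and in 9 for mt-Cytb.

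The largest fold change was that of mt-Co2, 0.21 ± 0.092 (SE, adjusted p = 0.0372, edgeR), and it rested on the 19 libraries, without which it was 0.08 ± 0.045 (adjusted p = 0.0891, edgeR). Summed with its copies mt-Co2 was higher in males by 0.11 ± 0.023 (adjusted p = 5.49e-06, edgeR). The median over the 10 genes was 0.143, and over all genes tested −0.018. Within the upper identifier range 4 of the 10 genes were called, beside 24.2% of all genes called in either direction. Markers of fibre type and fat moved with sex as well. In males 8 of 8 slow fibre markers and 8 of 9 adipocyte markers fell, beside 5855 of 16384 genes called lower. The summed slow fibre markers had a median of 1408 CPM in males (484 to 2738) and 2279 CPM in females (1313 to 4600). Tnni2, Tnnt3, Pvalb and Tnnc2 rose in males by 0.18 to 0.25, but they were named for the lowest p among 12 fast fibre markers. The sum of all 12 was not higher in males, with medians of 166847 CPM in males (97622 to 207065) and 167571 CPM in females (108255 to 206471). Their part in the result was not tested.

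Metformin-treated and untreated animals overlapped in every gene. mt-Co1 had a median of 28302 CPM in 234 treated animals (17752 to 44506) and of 29024 CPM in the untreated animals (19512 to 49095). It fell by 0.05 on the log2 scale (SE 0.013, adjusted p = 0.00212, edgeR), and the treated median was lower in 14 of 20 strains. mt-Cytb fell by 0.04 (SE 0.014, adjusted p = 0.0428, edgeR), with medians of 10721 and 11016 CPM and a lower treated median in 15 strains.

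These were the only 2 of the 10 genes called with edgeR, beside 9.21% of all genes called lower and 16.2% called in either direction, and the call of mt-Cytb was lost under several other settings. The other 8 genes had log2 fold changes from −0.12 ± 0.080 (SE) for mt-Co2 to 0.02 ± 0.019 for mt-Nd6, and the median of the 10 was −0.037, against −0.002 over all genes. Within the lower identifier range 3 genes were called, mt-Co1, mt-Cytb and mt-Atp6, beside 18.9% of all genes called in either direction. Within the upper range 0 of the 10 were called, beside 1 of all 17683 genes tested, and 0 had an unadjusted p under 0.05 in edgeR. Summed with copies, 2 of the 10 genes were called, beside 8.82% of all genes called lower: mt-Co1 and mt-Atp6, which fell by 0.06 (SE 0.018, adjusted p = 0.00804, edgeR), while mt-Cytb did not pass (adjusted p = 0.0504, edgeR). Of 9 adipocyte markers 3 fell with metformin and 0 rose, Lep by 0.30 (SE 0.081), Cidec by 0.25 (SE 0.071) and Fabp4 by 0.14 (SE 0.043), and their summed level had a median of 1244 CPM in treated animals (553 to 3754) and 1349.8 CPM in untreated ones (553 to 3520.4). Of 12 fast fibre markers, Myh4 rose by 0.06 ± 0.014 (SE) and Mylpf by 0.05 ± 0.016, and Myh1 fell by 0.08 (SE 0.022). Of 8 slow fibre markers 0 were called with edgeR, and 1 had an unadjusted p under 0.05. Their part in the result was not tested. The difference cannot be told apart from that of age.

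**Figure D5:**
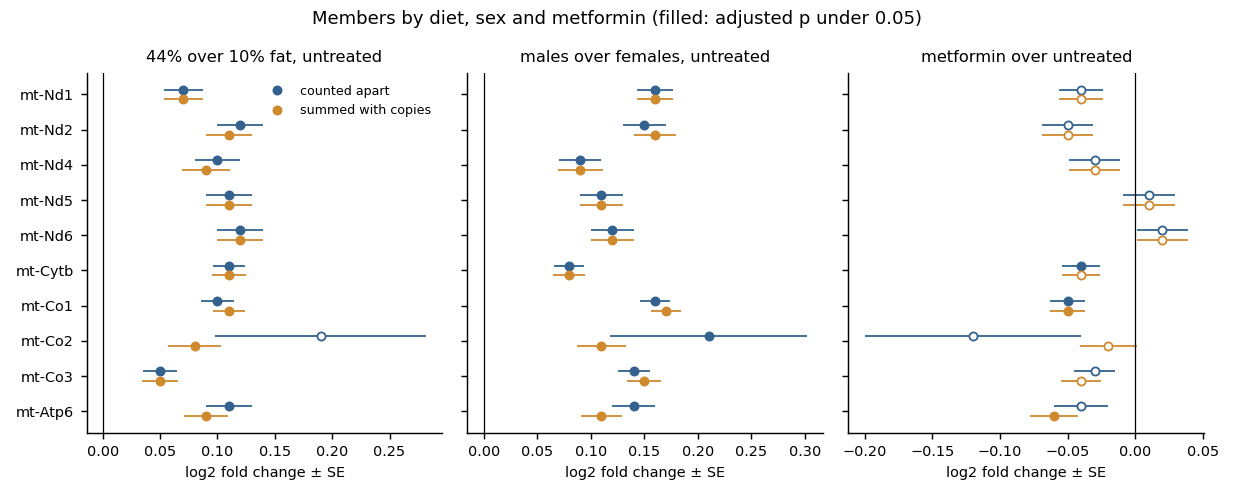
Log2 fold changes with standard errors of the 10 genes for diet, sex and metformin, with genes counted apart (blue) and summed with nuclear copies (orange). Only mt-Co1, mt-Co2, mt-Co3 and mt-Atp6 had copies to add. Filled points have an adjusted p under 0.05 in edgeR. Most points for diet and sex lie between 0.05 and 0.17, those for metformin between −0.06 and 0.02 apart from mt-Co2 at −0.12, and mt-Co2 counted apart has the widest error bars, as at 0.19 ± 0.092 for diet.

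With all libraries, interactions were called in mt-Co2 alone. Its diet difference depended on strain (adjusted p = 4.81e-25, edgeR), as 1 of the 10 genes beside 3.27% of all genes, and its metformin difference did (adjusted p = 4.31e-17, edgeR), again as 1 of 10 beside 8.89% of all genes. Both rested on the libraries against their label, all 4 of those nearest to another strain being untreated males on 44% fat: without the 19 libraries, the adjusted p of mt-Co2 was 0.837 for diet by strain and 0.968 for metformin by strain (edgeR). Then 0 of the 10 genes were called for either interaction, beside 2.29% and 9.33% of all genes, none having an unadjusted p below 0.05. On all libraries limma voom called 0 as well. Summed with its copies, mt-Co2 had adjusted p-values of 0.608 and 0.829 (edgeR). The interaction of diet with sex was called in 0 of the 10 genes with edgeR and with limma voom, beside 0.226% of all genes, and 0 had an unadjusted p under 0.05 in edgeR.

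The nuclear genes whose products work with these 10 were counted in the same fits. Nuclear complex I subunits rose on 44% fat in 18 of 36 genes and fell in 0, beside 9.55% of all genes called higher and 18.4% in either direction, with log2 fold changes of 0.09 ± 0.012 (SE) for Ndufv1 and 0.07 ± 0.012 for Ndufa10. Of complex III, 5 of 9 subunits rose, among them Uqcrc1 by 0.08 ± 0.014, of complex IV 6 of 13, among them Cox5b by 0.08 ± 0.017, and of complex V 11 of 16, among them Atp5a1 by 0.06 ± 0.010. No subunit of complexes III, IV or V fell. The median log2 fold changes were 0.044, 0.063, 0.038 and 0.049 for complexes I, III, IV and V, beside 0.107 for the mitochondrially encoded genes and −0.002 for all genes.

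In males, 33 of 36 nuclear subunits of complex I, 8 of 9 of complex III, 11 of 13 of complex IV and 14 of 16 of complex V were higher, beside 29.5% of all genes. Cox7a1 rose by 0.29 ± 0.021 (SE) and Uqcrc1 by 0.22 ± 0.014. With metformin, 17, 6, 3 and 10 subunits of complexes I, III, IV and V fell and 0 rose, beside 9.21% of all genes called lower, among them Ndufc2 by 0.08 (SE 0.015) and Cox6a2 by 0.09 (SE 0.018).

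Of 9 genes that transcribe mitochondrial DNA or regulate that step, 3 rose on 44% fat, beside 9.55% of all genes: Tfam, which packages and activates the mitochondrial genome, by 0.07 ± 0.011 (SE), the RNA polymerase Polrmt by 0.08 ± 0.014 and the elongation factor Tefm by 0.06 ± 0.016. Of 13 genes that copy and maintain mitochondrial DNA, 0 rose and 2 fell, Mgme1 by 0.09 (SE 0.018) and Exog by 0.13 (SE 0.032), beside 1445 of 16384 genes called lower. Of 18 genes that process or degrade mitochondrial RNA, 6 rose, among them Lrpprc, which stabilises mitochondrial messenger RNAs, by 0.06 ± 0.012 and the helicase Supv3l1 by 0.09 ± 0.013.

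Among 8 regulators of mitochondrial biogenesis, 3 rose on 44% fat, beside the same 9.55%: Esrra by 0.08 ± 0.021 (SE), Ppargc1b by 0.12 ± 0.034 and Esrrg by 0.08 ± 0.025. In males 4 of the 8 were higher and 3 lower, beside 29.5% of all genes called higher and 65.2% in either direction. Esrra (0.22 ± 0.021) and Ppargc1a (0.24 ± 0.045), a nuclear receptor and its coactivator, were higher, and Pprc1 fell by 0.09 (SE 0.014). Esrra and Ppargc1a fell with metformin, Esrra by 0.07 (SE 0.019) and Ppargc1a by 0.14 (SE 0.043). Of the same 8 regulators, Pprc1 alone rose with metformin, by 0.06 ± 0.014, beside 16.2% of all genes called in either direction.

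Other markers moved with diet, for which 9.55% of all genes were called higher and 1445 of 16384 genes lower. Of 9 adipocyte markers, 6 rose on 44% fat and 2 fell, with the hormone gene Lep up by 1.2 ± 0.085 (SE) and Cfd down by 0.54 (SE 0.069). The summed adipocyte markers had a median of 1387 CPM on 44% fat (635 to 3520.4) and 1334 CPM on 10% fat (553 to 3112). Of 8 slow fibre markers 3 rose and 0 fell, and of 12 fast fibre markers 1 rose and 3 fell. Of 5 red blood cell markers 0 were called for diet, sex or metformin with edgeR, and 0 had an unadjusted p under 0.05. Of 8 macrophage markers 0 were called with edgeR, and 1, 0 and 2 had an unadjusted p under 0.05 for diet, sex and metformin. Of 8 liver markers, Trf fell on 44% fat by 0.26 (SE 0.094) and in males by 0.29 (SE 0.093), Serpina1a rose in males by 0.62 ± 0.261, and 0 were called for metformin. For sex 65.2% of all genes were called in either direction, and for metformin 16.2%. Their part in the results was not tested.

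The nuclear genes whose strain means ran most like the mean log2 level of the 10 genes, over 20 strains and among 10432 genes compared, were Col6a6 (Pearson's r = 0.74, Spearman's rho = 0.57), Mipol1 (0.71 and 0.64), Rps27rt (0.71 and 0.49), Ints4 (0.71 and 0.63) and Cercam (0.71 and 0.72). These are the 5 highest of many, the same libraries gave both sides, and over the 20 strains the mean of the 10 genes had r = 0.91 with mt-Co2 and r = −0.84 with mt-Atp6, against r = −0.48 to 0.30 with the other 8. Without the 2 strains farthest from the median, r was 0.77 for Col6a6 and 0.60 for Ints4.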

How the data were processed

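Gastrocnemius RNA was sequenced as 100 bp read pairs from polyadenylated RNA. The authors aligned the reads of each pair as single-ended reads to a transcriptome of the 8 founder strains, and EMASE in the GBRS suite assigned reads shared between transcripts by expectation maximisation. The deposited estimated counts per gene, made by the authors on GRCm38 (submitters' processing notes), are whole numbers in the files. A second deposited table holds variance-stabilised values on a log2-like scale, made by the authors with DESeq2. The study filtered low transcripts and names batch-effect removal without saying for which table. The sources used here give neither the versions nor the strand setting of the counting.

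Totals were 27368536 to 96100529 counts (median 47876086). Of 1404 pairs of libraries with the same strain and group, the lowest chi-squared per degree of freedom was 11.76, and none was counted as 1 sample. Each library is 1 animal, and p-values of tests on libraries measure the spread between these libraries. Those of first-named and second-named lines measure the spread between strain means. Under R 4.3.3, edgeR 4.0.16 gave the quasi-likelihood tests of strain, sex, diet and metformin, with TMM scaling and a filter on low counts. First-named and second-named lines were tested on 20 strain means of log2 CPM (prior count 2) with limma 3.58.1. Adjusted p-values are Benjamini-Hochberg over all genes tested, 16384 in untreated and 17740 in all libraries, with a threshold of 0.05. DESeq2 1.42.0, limma voom, the variance-stabilised values, other scalings, no filter, either identifier range alone and leaving out libraries against their label or each strain were alternatives. Summing genes with those nuclear copies that had counts of their own, line fits in the lower range alone and interactions without the libraries against their label were added after seeing the data. Copies were sought among the other transcripts of GENCODE M21 on GRCm38, at 90% identity over at least 100 bases. Copies without an annotated transcript could not be found. The scripts were tested on simulated data.

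Named genes were the 10 members, other mitochondrially encoded genes, nuclear copies, the 5 named nuclear genes most like the mean of the 10 over strains, and up to 4 called genes by lowest p per gene list. The members and lists were chosen with earlier results of these data known.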

Additional observations from a re-analysis of the deposited data

Results flagged for a closer look

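The diet difference of mt-Co2 differed between strains by the interaction term (adjusted p = 4.81e-25, edgeR), and so did its metformin difference (adjusted p = 4.31e-17, edgeR). Without the 19 libraries against their label these adjusted p-values were 0.837 and 0.968 (edgeR).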

How the results depend on the processing

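Among recomputed counts and shares, 99 stayed within 1.5 times the reported count or within 1 SD of the reported share, and 16 moved. In the upper identifier range alone, the genes called were 1 of 10 for strains with the same first-named line, 0 for diet, 4 for sex and 0 for metformin. Of all genes, 27.3%, 1.8%, 24.2% and 0.00566% were called there. Summing genes with their copies left 1 called for the first-named line. For metformin 1 was called with DESeq2 size factors, with scaling on genes outside the mitochondrial genome, with the DESeq2 Wald test, on variance-stabilised values and without the libraries against their label. Of all genes, 15.7% to 17.1% were called under these settings. For diet by strain and for metformin by strain 0 were called with limma voom, without the libraries against their label and with genes summed with copies. Leaving out each strain in turn called 2 to 4 genes for the first-named line and 0 for the second-named line. Of 300 recomputed values of single genes, 264 kept direction and call, 24 lost the call, 3 gained it and 9 turned direction. In the upper range these were mt-Nd1 (−0.02), mt-Nd4 (−0.01) and mt-Co2 (−0.15) for diet, mt-Co2 for sex (−0.03), and mt-Co2 (0.02) and mt-Atp6 (0.02) for metformin, all log2 fold changes. The metformin difference of mt-Co2 also turned with limma voom (0.03), on variance-stabilised values (0.02) and without the libraries against their label (0.01). None of these 9 passed the test. The upper range holds fewer libraries, and the causes of the other changes were not tested. No paired analysis was possible because the labels give every library the same replicate number. A DESeq2 Wald test of strain was not run, since it has many coefficients. Where reads carry the reference sequence, a gene and an identical copy cannot be told apart at any depth. Whether gene and copy differ in the founder strains was not tested.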
